A study of Homo sapiens with 24 samples.

Results

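The classical MHC class II chains were followed in 4 cell lines of diffuse large B-cell lymphoma (DLBCL) after silencing of FOXP1, a forkhead transcription factor. Every array probe named for HLA-DRA, HLA-DRB5, HLA-DRB4, HLA-DRB3, HLA-DRB1, HLA-DPA1, HLA-DPB1, HLA-DQA1, HLA-DQB1 or HLA-DQB2 was taken, without regard to its values. That gave 10 genes of 30142 gene names and 19 probes of 41000. DB and K422 represent the germinal centre B-cell-like (GCB) subtype and HBL-1 and OCI-Ly3 the activated B-cell-like (ABC) subtype, so each subtype rests on 2 lines and each line is a single culture-adapted tumour. Each line was nucleofected with 1 of 2 Stealth duplexes against FOXP1, siFOXP1_308 or siFOXP1_309, or with a low GC negative control duplex (siCtrl), and RNA was taken after 48 h. For each line and siRNA, 3 biological replicates were hybridised, 24 two-colour arrays in all, with siFOXP1 RNA in Cy3 and siCtrl RNA in Cy5 on every array. As no dyes were swapped, a dye effect on a probe cannot be told apart from its response.

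MHC class II molecules are pairs of an alpha and a beta chain on the surface of B cells and other antigen-presenting cells, where they show peptides to CD4+ T cells. HLA-DRA, HLA-DPA1 and HLA-DQA1 encode alpha chains, and the DRB genes, HLA-DPB1 and HLA-DQB1 encode their beta partners, while HLA-DQB2 is a close relative of HLA-DQB1. Their promoters share an X box and a Y box, bound by RFX and NF-Y, and transcription depends on the coactivator CIITA. The DRB genes are near-identical copies, and haplotypes differ in which of HLA-DRB3, HLA-DRB4 and HLA-DRB5 they carry. Class II is often reduced in aggressive B-cell lymphoma.

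The probes are shown first, because several of them can bind the transcript of more than 1 gene or only some alleles. On hg18, the build of the array files, 12 of the 19 probes lie in 1 unbroken stretch of chromosome 6. Another 3 map to a span longer than the probe, and 4 were given no position. The HLA-DRA probe lies at chr6:32520426-32520485 on the plus strand, and the 10-spot HLA-DRB1 probe at chr6:32656502-32656561 on the minus strand. The files list a RefSeq record of HLA-DRB3 for that HLA-DRB1 probe too, and a record of HLA-DRB1 for the HLA-DRB5 probe at chr6:32594394-32595156, so their signals may not belong to 1 gene. The HLA-DRB5 and HLA-DRB4 probes that share most sequence overlap over 54 bases, of which 49 are identical (90.7%). They are printed 5′ to 3′ with the 5 mismatches in capitals.
HLA-DRB5 A_23_P31006: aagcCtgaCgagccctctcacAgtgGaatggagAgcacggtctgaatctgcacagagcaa
HLA-DRB4 A_24_P370472: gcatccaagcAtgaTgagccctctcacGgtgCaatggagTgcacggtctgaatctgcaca

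The other DR beta probes whose values carry the DR results are given whole, without capitals. HLA-DRB3 A_23_P145336 is placed at chr6:32597546-32597910, a span longer than the probe, and HLA-DRB3 A_24_P402222 has no position in the files. The first position lies close to those of the HLA-DRB5 probes, and no RefSeq record is listed for it. Its signal may therefore not belong to HLA-DRB3.
HLA-DRB1 A_24_P343233: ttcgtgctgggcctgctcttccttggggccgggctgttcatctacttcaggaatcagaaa
HLA-DRB3 A_24_P402222: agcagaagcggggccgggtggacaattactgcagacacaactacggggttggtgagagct
HLA-DRB3 A_23_P145336: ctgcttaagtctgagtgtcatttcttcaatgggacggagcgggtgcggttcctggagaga

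HLA-DQA1 had 4 probes, and its readings differed most between them, so the pair with shared sequence is printed over a 30-base window, with the 4 mismatches in capitals. Over their full 46-base overlap the pair shares 40 bases (87%). Another HLA-DQA1 probe, shown whole, was designed on a partial coding sequence of a DQA1*03 allele. The HLA-DQB2 probe lies at chr6:32834713-32834772 on the minus strand.
HLA-DQA1 A_23_P30900: acttaaATtgctatatcTGctcagagctca
HLA-DQA1 A_24_P196827: acttaaGCtgctatatcCCctcagagctca
HLA-DQA1 A_24_P326084: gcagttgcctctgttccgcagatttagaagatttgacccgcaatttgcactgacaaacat
HLA-DQB2 A_23_P19510: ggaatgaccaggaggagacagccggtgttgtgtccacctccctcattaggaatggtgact

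HLA-DPA1 and HLA-DPB1 had 2 probes each. The HLA-DPB1 probe placed over a longer span (chr6:33160959-33161565, plus strand) and the HLA-DPA1 probe at chr6:33145415-33145474 on the minus strand are printed. Each placed OCI-Ly3 above K422, in mean level, where the other probe of the same gene placed it below.
HLA-DPB1 A_24_P166443: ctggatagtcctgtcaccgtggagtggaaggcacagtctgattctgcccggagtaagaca
HLA-DPA1 A_24_P243528: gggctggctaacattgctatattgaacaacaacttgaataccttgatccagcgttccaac

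RefSeq promoter windows (GRCh38.p14, 250 bases before to 50 after the start) were found for 7 of the 10 genes, as 8 windows. The letters ACNGATG, the core written for the X box, occurred on either strand in 3 of the 8 windows and in 2686 of all 35116 windows (7.65%). The Y box letters ATTGG occurred in 6 of the 8 and in 34.6% of all windows, and both together in 2.78%. The forkhead letters TGTTTAC occurred in none of the 8 and in 3.42% of all, which says only that these letters are not in these windows. The X letters were written with these promoters in view, so the share among them is a description. The 3 stretches with both boxes follow, each 54 bases on the minus strand, with the boxes in capitals and 22 bases between them.
HLA-DRB5, chr6:32530363-32530416: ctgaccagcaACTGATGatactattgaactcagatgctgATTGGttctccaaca
HLA-DRB1, chr6:32589880-32589933: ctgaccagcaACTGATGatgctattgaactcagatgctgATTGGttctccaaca
HLA-DQB1, chr6:32666731-32666784: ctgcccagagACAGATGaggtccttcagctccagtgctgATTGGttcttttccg

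FOXP1 itself was lower in siFOXP1 than in siCtrl RNA on 24 of 24 arrays with both of its probes. Group means for probe A_23_P155257 lay between -1.48 and -0.91 (log2 siFOXP1/siCtrl) with siFOXP1_308 and between -2.70 and -1.76 with siFOXP1_309. All 6 B cell markers examined were well above background, by the scanner software's own flag, in all 4 lines. MME (CD10), a germinal centre marker, was not well above background on any array of HBL-1 or OCI-Ly3. BCL6 and LMO2, from the same list, were above it on all arrays of both. IRF4 and CCND2, activated B cell markers, were above background on no array of DB or K422. IL16 and PIM2, from that list too, were above it on all arrays of both. The plasma cell markers PRDM1 and SDC1 were both above background throughout in K422 and OCI-Ly3, and SDC1 alone in DB and HBL-1. Of 4 T cell markers, DB had 0 above background on all its arrays, K422 had CD3D and CD3E, HBL-1 had CD3E and CD8A and OCI-Ly3 had CD3E. The log2 of the summed signal of those 4 was 11.68 to 11.88 in K422 and 5.809 to 7.334 in the other lines. Of 4 myeloid and dendritic cell markers measured, 1 was above background in DB and 2 in each other line. The log2 of their summed signal was 10.84 to 10.93 in OCI-Ly3 and 6.476 to 8.6 elsewhere. The part of these markers in the results was not tested.

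In siCtrl cells, DB stood below the other 3 lines with every DR and DP probe and with HLA-DQB2. The log2 siCtrl level of HLA-DRA was 6.11, 6.21 and 7.03 in the 3 DB replicates, against 12.89, 12.50 and 12.56 in K422, 12.99, 12.56 and 12.34 in HBL-1, with OCI-Ly3 at 13.91, 13.96 and 13.94. No DB replicate came near those of another line, and K422 and HBL-1 overlapped. OCI-Ly3 and DB were scanned together, as were HBL-1 and K422, so levels were tested only within these pairs. OCI-Ly3 exceeded DB in HLA-DRA level by 7.48 on the log2 scale, 179-fold (limma adjusted p = 8.69e-10, n = 3 per line), whereas HBL-1 and K422 differed by -0.02 (limma adjusted p = 0.98). In bulk RNA, fewer cells with a transcript and less of it per cell cannot be told apart.

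The DR beta chains followed the same order at the bottom. HLA-DRB1 averaged 9.29 ± 0.26 (log2 level, SD, n = 3) in DB, 13.59 ± 0.33 in HBL-1, 14.52 ± 0.20 in K422 and 15.06 ± 0.04 in OCI-Ly3. The HLA-DRB1 level of OCI-Ly3 was 54.8-fold that of DB (limma adjusted p = 7.70e-10). The HLA-DRB4 probe read 6.12 ± 0.39 in DB and 12.32 ± 0.20, 11.63 ± 0.29 and 12.20 ± 0.11 in K422, HBL-1 and OCI-Ly3. It cannot be said from a 60-base probe that shares 49 bases with another DRB gene's probe that a line carries HLA-DRB4. The 2 HLA-DRB3 probes showed OCI-Ly3 above DB by 6.37 and 6.53 (log2 level).

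The HLA-DRB5 probes did not order K422 and the ABC lines alike. With A_23_P31006, whose files name HLA-DRB1 too, K422 averaged 14.29 ± 0.18 and OCI-Ly3 14.58 ± 0.03 (log2 level, SD, n = 3). With A_23_P45099, at chr6:32593384-32593443, K422 averaged 14.31 ± 0.18 but OCI-Ly3 only 11.87 ± 0.05 and HBL-1 11.57 ± 0.22. HBL-1 was 6.65-fold below K422 with that probe (limma adjusted p = 1.61e-06) and 2.13-fold below with the first (0.00338). In DB that probe averaged 5.36 ± 0.49 and was well above background in siCtrl on 5 of 6 arrays.

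Both HLA-DPA1 probes and 1 of the HLA-DPB1 probes showed the smallest gaps between OCI-Ly3 and DB among the probes measured in siCtrl on all 24 arrays. HLA-DPA1 probe A_23_P30913 read 11.88 ± 0.03 in DB, 13.09 ± 0.37 in HBL-1, 13.84 ± 0.06 in OCI-Ly3 and 14.997 ± 0.23 in K422 (log2 level, SD, n = 3). OCI-Ly3 exceeded DB by 3.91-fold with it (limma adjusted p = 3.38e-06) and by 5.54-fold with the other HLA-DPA1 probe (3.28e-07). The HLA-DPB1 probes disagreed about OCI-Ly3. Its mean log2 level was 11.44 ± 0.08 with A_23_P258769, below K422 (14.56 ± 0.26) and HBL-1 (12.77 ± 0.44), but 14.44 ± 0.03 with A_24_P166443, where K422 had 13.95 ± 0.18 and HBL-1 12.35 ± 0.37. OCI-Ly3 accordingly exceeded DB by 4.30-fold with the first and 43.7-fold with the second. Levels of different probes are not comparable. On 1 probe, lines of the same scan can be ordered. The order of OCI-Ly3 or DB against K422 or HBL-1 cannot be told apart from an effect of scan.

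The DQ chains were the least evenly measured. HLA-DQB1 probe A_23_P136683 averaged 8.24 ± 0.15 in OCI-Ly3, 11.74 ± 0.43 in K422 and 11.75 ± 0.37 in HBL-1 (log2 level, SD, n = 3), and was not well above background on any DB array. With DB set at the detection floor, OCI-Ly3 had at least 11.2-fold more, a bound that was not itself tested. The test used the measured signals, those of DB being below the flag (limma adjusted p = 4.27e-09). For a second HLA-DQB1 probe, A_24_P239676, the first 57 of 60 bases match the promoter window from 7 bases before the RefSeq start. The window ends there, so the remaining bases were not compared. This probe read 6.37 ± 0.14 in OCI-Ly3, 7.28 ± 0.20 in K422 and 6.26 ± 0.30 in HBL-1, at least 3.08-fold above DB in OCI-Ly3. The third, A_24_P937649, was above background in siCtrl on 1 array only, of HBL-1. HLA-DQB2 averaged 5.11 ± 0.41 in DB, 9.77 ± 0.17 in OCI-Ly3, 10.78 ± 0.38 in HBL-1 and 11.42 ± 0.28 in K422.

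HLA-DQA1 probes switched between lines. Probe A_24_P196827 averaged 12.40 ± 0.25 in K422 and 11.75 ± 0.35 in HBL-1 (log2 level, SD, n = 3) and was not well above background in siCtrl on any array of DB or OCI-Ly3. Its near-copy A_23_P30900 read 10.75 ± 0.05 in OCI-Ly3, 9.54 ± 0.27 in K422, 5.73 ± 0.86 in DB and 4.05 ± 0.44 in HBL-1. The DQA1*03-derived probe A_24_P326084 averaged 13.57 ± 0.15 in K422 and 5.13 ± 0.08 in OCI-Ly3 and was below the flag in DB and HBL-1, so K422 had at least 865-fold more than HBL-1. A_24_P393230 was not well above background in any line. A_23_P30900 was above background in siCtrl on 5 of 6 arrays of DB and 4 of 6 of HBL-1, so no HLA-DQA1 probe was measured on all arrays of all 4 lines. What share of this is allele sequence and what share level was not tested.

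**Figure D1:**
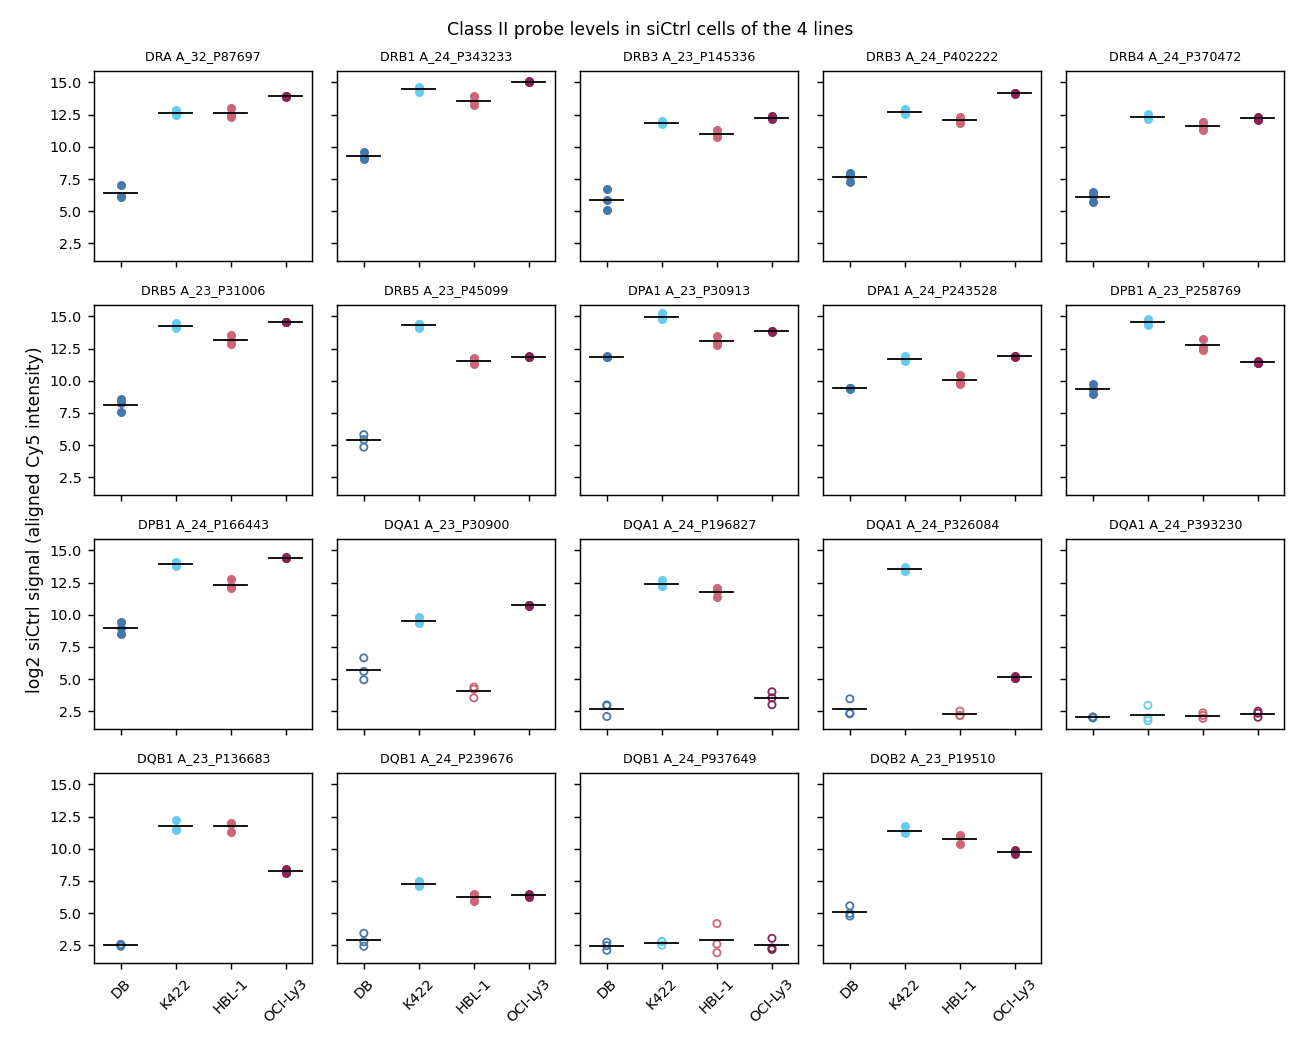
siCtrl level (log2 Cy5 after normalisation between arrays) of each class II probe in the 4 lines, with points for the 3 replicates of a line and a bar at their mean. Open points mark a probe not well above background in siCtrl on all 6 arrays of the line. DB lies lowest for the DR and DP probes, with HLA-DRA at 6.11 to 7.03 against 12.34 or more elsewhere, and the HLA-DQA1 probes change order from line to line.

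Over all 19 probes, 16 were called higher in OCI-Ly3 than in DB (adjusted p under 0.05 and a log2 difference of at least 1), against 12.3% of all probes on the array, and 0 were lower (15.1%). Between HBL-1 and K422, 9 probes were lower in HBL-1 (14% of all probes) and 0 higher (11.9%). No class II probe was saturated on any array. In siCtrl and siFOXP1 channels alike, 8 of the 19 probes were well above background on all 6 arrays of DB, 16 on those of OCI-Ly3, 15 for HBL-1 and 17 for K422.

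On FOXP1 silencing, class II transcripts rose in OCI-Ly3, with fewer of them passing the test in HBL-1, and none rose in DB or K422. The response is given as log2(siFOXP1/siCtrl) within an array, and a probe was called at an adjusted p under 0.05 over all probes together with a log2 ratio of at least 0.5 in size, 1.41-fold. In OCI-Ly3, 10 of the 19 probes, from 7 genes, were called higher (2.97% of all probes) and 0 lower (1.64%). In HBL-1, 4 probes from 3 genes were called higher (5.54% of all probes) and 0 lower (4.33%), and without HBL-1 replicate 1 the count was 0. In DB, 0 were called higher (1.32%) and 2 lower (0.844%), and in K422 0 in either direction (2.32% and 1.93%). By adjusted p alone, 14 probes passed in OCI-Ly3 and 9 in HBL-1, all higher. The median over the 19 probes was 0.52 in OCI-Ly3, 0.34 in HBL-1, -0.12 in K422 and -0.21 in DB, where the median of all probes was 0.

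**Figure D2:**
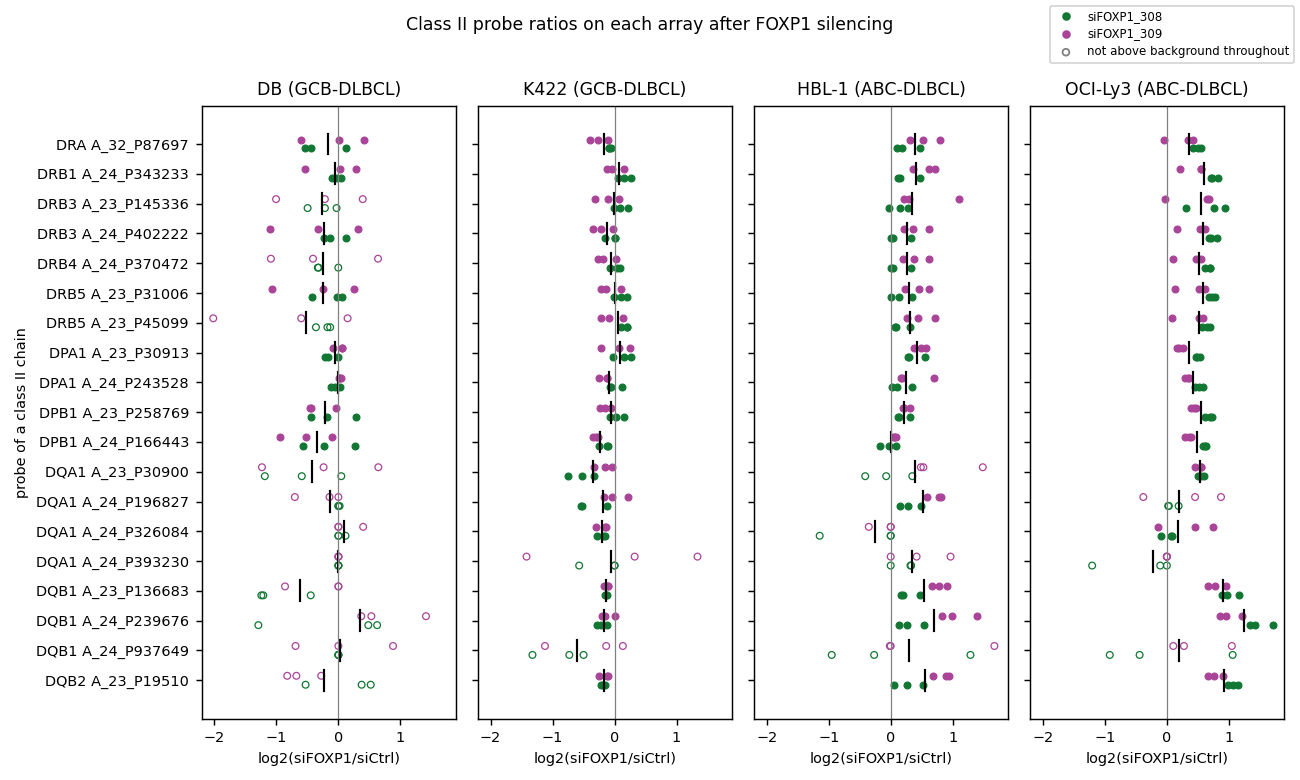
Response (log2 siFOXP1/siCtrl) of every class II probe on each of the 24 arrays, by line and siRNA, with a bar at the line's mean and open points where a probe was not well above background throughout. OCI-Ly3 and HBL-1 arrays lie mostly above 0 (line medians 0.52 and 0.34), K422 and DB arrays around or below 0 (-0.12 and -0.21).

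The DQ beta chains responded most. HLA-DQB1 probe A_23_P136683 had log2 ratios of 0.89, 1.16 and 0.97 with siFOXP1_308 and 0.67, 0.78 and 0.95 with siFOXP1_309 in OCI-Ly3, a mean of 0.90 ± 0.17 (SD, n = 6) or 1.87-fold (limma adjusted p = 1.02e-05). In HBL-1 it had 0.47, 0.20 and 0.16 and then 0.78, 0.67 and 0.91, a mean of 0.53 ± 0.31 or 1.45-fold (limma adjusted p = 5.76e-04). All 12 arrays of the ABC lines were above 0, and all 6 of K422 were slightly below, at -0.18 to -0.10 (limma adjusted p = 0.427). In DB the same probe was called lower at -0.63 (limma adjusted p = 6.24e-04), but it was not well above background in either channel on any DB array, so no fold is given.

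The HLA-DQB1 probe at the start of the transcript had the greatest mean ratio of the 19 probes in both ABC lines. In OCI-Ly3 it read 1.34, 1.71 and 1.42 with siFOXP1_308 and 0.96, 0.86 and 1.21 with siFOXP1_309, averaging 1.25 ± 0.31 (SD, n = 6) or 2.38-fold (limma adjusted p = 9.71e-05). In HBL-1 it ran from 0.13 to 1.40 and averaged 0.695 (limma adjusted p = 0.00607). HLA-DQB2 moved closely alongside. Its OCI-Ly3 ratios were 0.99, 1.06, 1.15, 0.75, 0.66 and 0.91, averaging 0.92 ± 0.19 or 1.89-fold (limma adjusted p = 6.23e-06), and its HBL-1 ratios ran from 0.05 to 0.94, averaging 0.56 ± 0.35 (2.94e-04). As HLA-DQB1 and HLA-DQB2 are close relatives, cross-hybridisation between them was not tested.

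HLA-DQA1 gave 1 call, in HBL-1. Probe A_24_P196827 in HBL-1 had 0.49, 0.28 and 0.15 with siFOXP1_308 and 0.81, 0.58 and 0.79 with siFOXP1_309, a mean of 0.52 ± 0.27 (SD, n = 6; limma adjusted p = 0.00222). Probe A_23_P30900 in OCI-Ly3 was tight, from 0.45 to 0.60 with a mean of 0.53 ± 0.05, but the spread pooled over all arrays gave a limma adjusted p of 0.0556. In K422, where 3 HLA-DQA1 probes were well above background in both channels, their means were -0.36, -0.19 and -0.20, none past the test.

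All 4 DR beta genes were called higher in OCI-Ly3. HLA-DRB1 read 0.73, 0.83 and 0.71 with siFOXP1_308 and 0.54, 0.55 and 0.21 with siFOXP1_309, a mean of 0.60 ± 0.22 (SD, n = 6) or 1.51-fold (limma adjusted p = 5.13e-05). The HLA-DRB3 probes averaged 0.59 and 0.55, HLA-DRB4 0.52 and the HLA-DRB5 probes 0.58 and 0.52. Replicate 3 of siFOXP1_309 was the lowest OCI-Ly3 array for all 6 of these probes, from -0.02 to 0.21. With replicate number as a block, HLA-DRB5 A_23_P45099 was no longer called in OCI-Ly3 (limma adjusted p = 0.0711). These beta chain probes share sequence and possibly transcripts, so they are not 6 independent readings.

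In HBL-1 the DR beta probes averaged 0.26 to 0.41, and none reached the log2 limit. HLA-DRB1 had 0.41 ± 0.24 (SD, n = 6; limma adjusted p = 7.24e-04), the only one of the 6 past the adjusted p. HLA-DRA, the shared alpha partner, read 0.47, 0.19, 0.11, 0.79, 0.31 and 0.52 in HBL-1, a mean of 0.40 ± 0.25 or 1.32-fold (limma adjusted p = 0.00761). In OCI-Ly3 it read 0.55, 0.50, 0.42, 0.42, 0.34 and -0.05, a mean of 0.36 ± 0.22 or 1.29-fold (limma adjusted p = 0.0226). It reached the log2 limit in neither line. With replicate number as a block its limma adjusted p was 0.0503 for OCI-Ly3 and 0.0187 for HBL-1, and without HBL-1 replicate 1 its HBL-1 mean was 0.28 (0.144).

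In the GCB lines the DR chains stayed near 0 or had values below it. HLA-DRA averaged -0.17 ± 0.13 in K422, with all 6 arrays below 0, and -0.17 ± 0.42 in DB, where arrays ran from -0.61 to 0.42 (limma adjusted p = 0.319 and 0.363). HLA-DRB1 averaged 0.08 and -0.05. HLA-DRB5 A_23_P45099 was called lower in DB at -0.52 (limma adjusted p = 0.0475), with 1 array, replicate 2 of siFOXP1_309, at -2.02 and the other 5 between -0.60 and 0.15. Without that array the DB mean was -0.22 (limma adjusted p = 0.171), and with replicate number as a block the call was lost too (0.0934). That array was the lowest of DB for all 6 DR beta probes.

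The DP chains gave 1 call, in OCI-Ly3. HLA-DPB1 A_23_P258769 in OCI-Ly3 had 0.69, 0.62 and 0.72 with siFOXP1_308 and 0.48, 0.44 and 0.40 with siFOXP1_309, a mean of 0.56 ± 0.14 (SD, n = 6) or 1.47-fold (limma adjusted p = 2.23e-05). The other HLA-DPB1 probe averaged 0.48 ± 0.15 in OCI-Ly3, past the adjusted p (7.58e-04) but under the log2 limit. In HBL-1 the pair had 0.21 ± 0.09 and 0.01 ± 0.10. HLA-DPA1 probe A_23_P30913 averaged 0.43 ± 0.13 in HBL-1 (limma adjusted p = 7.49e-06) and 0.35 ± 0.16 in OCI-Ly3 (1.51e-04), with all 12 arrays above 0 and no call at the log2 limit. The other HLA-DPA1 probe, A_24_P243528, had the lines in the reverse order, at 0.25 ± 0.24 in HBL-1 and 0.43 ± 0.11 in OCI-Ly3, also under the limit. HLA-DPB1 A_24_P166443 averaged -0.35 ± 0.42 in DB (limma adjusted p = 0.0132), also short of the limit. Without replicate 2 of siFOXP1_309 that DB mean was -0.24 (limma adjusted p = 0.0741).

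The direction in HBL-1 depended on scaling for the weaker chains. With background-corrected raw signals centred on each array's median in place of the scanner's loess-normalised ratios, 6 of the 19 HBL-1 means were below 0, against 1 with the scanner's ratios. None of the 6 had been called, and they were HLA-DPB1 (both probes, at -0.01 and -0.36), HLA-DRB4 and 1 probe each of HLA-DRB3, HLA-DRB5 and HLA-DPA1. In OCI-Ly3 17 of the 19 means were above 0 under that scaling, against 18 with the scanner's ratios.

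The subtypes differed in response. The contrast of HBL-1 and OCI-Ly3 with DB and K422 called 13 of the 19 probes, from 8 genes, as higher in the ABC lines (1.35% of all probes) and 0 as lower (0.82%), with a median difference of 0.55 in log2 ratio. Without DB replicate 2 the count was 6, and without HBL-1 replicate 1 it was 8. Both HLA-DQB1 probes and HLA-DQA1 A_24_P196827 are among the 13, but none of the 3 was well above background on any DB array, so their size in this contrast is not read. Where HLA-DQB1 A_23_P136683 was measured in both lines, HBL-1 exceeded K422 in response by 0.67 (limma adjusted p = 0.00688). HLA-DQB2, above background in DB siCtrl on 3 of 6 arrays, differed by 0.94 (limma adjusted p = 1.21e-05), with ABC arrays from 0.05 to 1.15 and GCB arrays from -0.83 to 0.52. HLA-DRA differed by 0.55 (0.0032), with ABC arrays from -0.05 to 0.79 and GCB arrays from -0.61 to 0.42.

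Each scan held 1 line of each subtype, so the contrast could be taken within a scan. OCI-Ly3 exceeded DB in response for 10 probes (0.99% of all probes) and HBL-1 exceeded K422 for 5 (2.19%), which were HLA-DRA, HLA-DQA1 A_24_P196827, HLA-DQB2 and 2 HLA-DQB1 probes. HLA-DRA differed by 0.57 between HBL-1 and K422 (limma adjusted p = 0.0236), the pair whose siCtrl levels of it differed by -0.02, and by 0.54 between OCI-Ly3 and DB (0.0712). With replicate number as a block, 11 of the 13 subtype calls stood, and HLA-DRB3 A_23_P145336 (limma adjusted p = 0.063) and HLA-DRB4 (0.0507) did not. Between lines of a subtype, 0 class II probes were called, either for OCI-Ly3 against HBL-1 (4.72% of all probes) or for K422 against DB (1.94%). A test on 2 lines a subtype speaks for these lines, and on the 4 line means alone 0 probes were called.

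**Figure D3:**
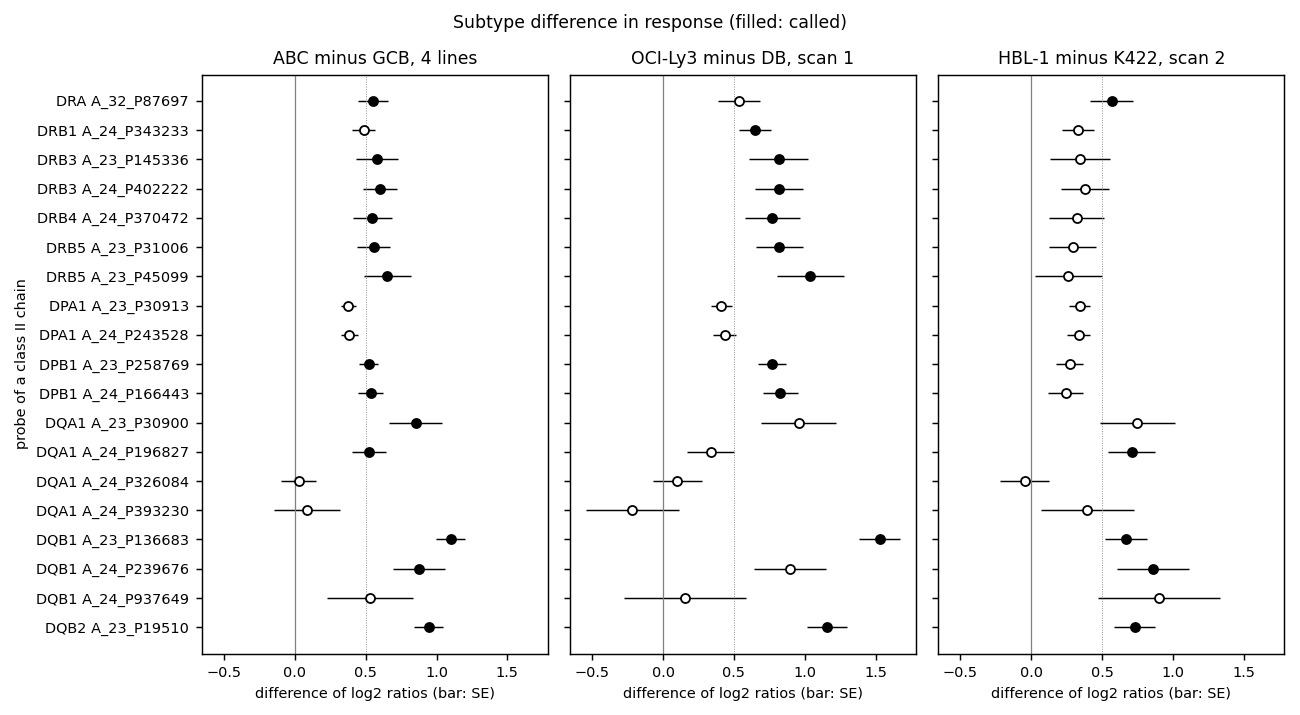
Difference in response between ABC-DLBCL and GCB-DLBCL lines (log2 ratio, HBL-1 and OCI-Ly3 minus DB and K422) for each class II probe, beside the same within each scan, with bars for the SE and filled points for called probes. All 19 estimates over 4 lines lie above 0, among them HLA-DRA at 0.55, but those of HLA-DQB1 rest on DB values that did not clear background.

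The 2 siRNAs gave no called difference for a class II probe in any line, or 1 in DB with replicate number as a block. The shares of all probes called between siRNAs were 0.166% in OCI-Ly3, 0.185% in HBL-1, 0.134% in K422 and 0.324% in DB. Yet the order of the siRNAs was uniform across probes within the ABC lines, and opposite between them. In HBL-1, siFOXP1_309 gave the higher mean for 15 of the 15 probes well above background in both channels, with medians of 0.48 against 0.18. In OCI-Ly3, siFOXP1_308 gave the higher mean for 15 of 16, with medians of 0.67 against 0.43. FOXP1 was lower with siFOXP1_309 than with siFOXP1_308 in every line. The test of the siRNA difference between HBL-1 and OCI-Ly3, added after the order was seen, called 0 class II probes (0.0756% of all probes), with a lowest limma adjusted p of 0.707, or 0.262 with replicate number as a block. Probes on 1 array share its RNA, so the counts of 15 stand for few independent readings.

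**Figure D4:**
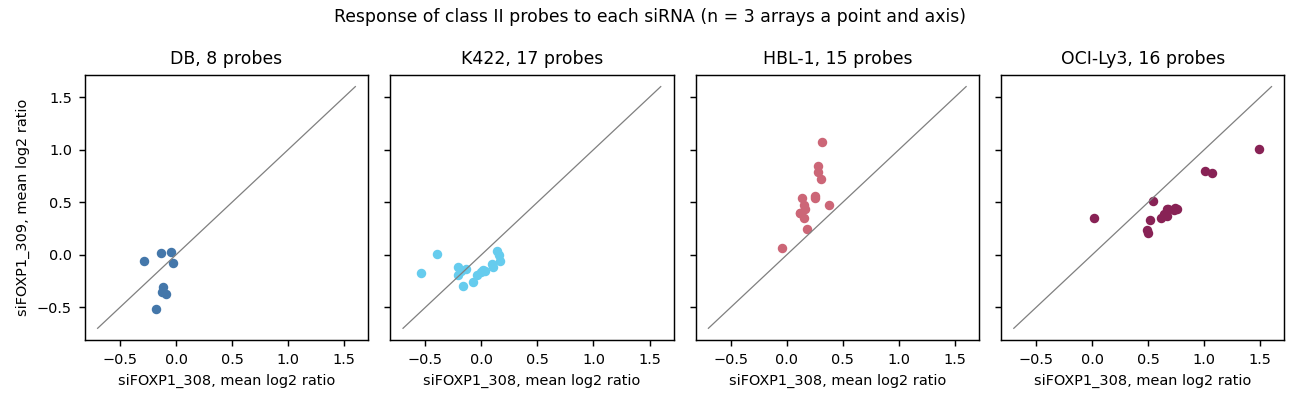
Mean response (log2 siFOXP1/siCtrl, n = 3 arrays) of each class II probe well above background in both channels, with siFOXP1_308 (horizontal) and siFOXP1_309 (vertical) in the 4 lines, and a line of equality. HBL-1 probes are higher with siFOXP1_309 (median 0.48 against 0.18) and OCI-Ly3 probes with siFOXP1_308 (0.67 against 0.43).

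Level and response were set side by side for the 10 probes well above background in siCtrl on all 24 arrays. DB had the lowest siCtrl level for 10 of the 10 and the least response for 9, with K422 least for the other. The order of DB and K422 in response rested in part on 1 array, replicate 2 of siFOXP1_309 in DB. Without it, DB means of HLA-DRA, HLA-DRB4 and HLA-DRB3 A_24_P402222 were -0.04, -0.05 and -0.05, against -0.17, -0.06 and -0.12 in K422. The other probes with DB least kept that order, but 0 class II probes were called for K422 against DB. OCI-Ly3 had the highest level for 7 and the greatest response for 8, and HBL-1 the greatest response for 2. K422 broke the parallel. Its HLA-DPA1 A_23_P30913 level was the highest of the lines, at 14.997, while its response was 0.08, and its HLA-DRA level equalled that of HBL-1 within the replicate spread while the responses were -0.17 and 0.40. Over the 4 lines, Spearman's rho between level and response ran from 0.2 to 0.8 for these probes. It is given as a description of 4 points, and the response itself contains the siCtrl level. OCI-Ly3 and DB were scanned apart from K422 and HBL-1, so the order of levels across these pairs cannot be told apart from an effect of scan.

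**Figure D5:**
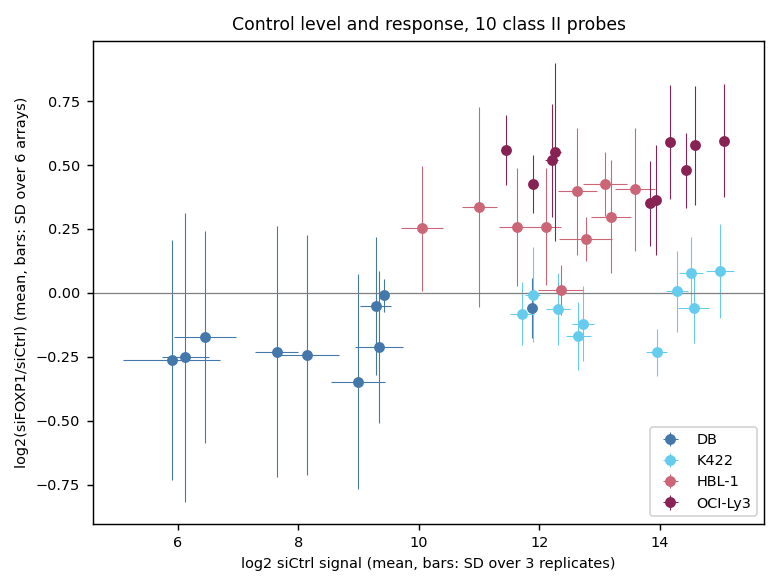
siCtrl level (log2, horizontal) against response (log2 siFOXP1/siCtrl, vertical) of the 10 class II probes measured in siCtrl on all arrays, 1 point per probe and line, with bars for the SD over 3 replicates and over 6 arrays. Most DB points lie at low levels, with responses below 0, OCI-Ly3 points at high levels and high responses, and K422 points at high levels with responses near 0.

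CD74 and chains of HLA-DM and HLA-DO, which escort class II and load its peptides, also rose in the ABC lines. There were 12 probes for HLA-DM, HLA-DO and CD74, the invariant chain that guards the peptide groove. Of these, 6 were called higher in OCI-Ly3 (2.97% of all probes) and 4 in HBL-1 (5.54%). In either line 0 were lower (1.64% and 4.33%). CD74 rose by 0.95 ± 0.24 in HBL-1 and 0.73 ± 0.20 in OCI-Ly3 (SD, n = 6; limma adjusted p = 1.43e-07 and 7.66e-06). HLA-DOB, part of the HLA-DM modulator HLA-DO, rose by 1.16 in HBL-1, and HLA-DMB, part of the peptide exchanger HLA-DM, by 0.73 and 0.70 in OCI-Ly3. In K422 1 HLA-DMB probe fell by 0.64 on the log2 scale, where 1.93% of all probes were called lower. In DB 0 of the 12 were called (1.32% of all probes higher and 0.844% lower). CD74 nevertheless read 0.29 ± 0.10 in DB (SD, n = 6; limma adjusted p = 0.0246), short of the log2 limit. The list's median was 0.54 in OCI-Ly3, 0.35 in HBL-1, 0.06 in K422 and -0.01 in DB, where all probes had 0.

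CIITA, the class II coactivator, had 4 probes. In OCI-Ly3 2 of them were called higher, at 0.87 ± 0.12 and 0.70 ± 0.11 (SD, n = 6; limma adjusted p = 1.75e-04 and 0.0104), and the others read 0.51 and 0.36. In HBL-1 the 4 read 0.45, 0.36, 0.17 and 0.13, with none at the log2 limit. In DB, the line with the lowest class II levels, 3 of the 4 CIITA probes were not well above background in siCtrl on any array and the fourth on 2 of 6. One of the 3, A_23_P33384, was called lower in DB at -1.38 (limma adjusted p = 8.47e-05), with neither channel above background on any array, so no fold is given. In all, 2 of 19 probes for class II transcription factors were called higher in OCI-Ly3 (2.97% of all probes) and 1 lower (1.64%). The lower one was RFXAP at -0.59, a subunit of the RFX complex. RFXAP was also called lower in DB (-0.55), where it and that CIITA probe were the 2 called, and in HBL-1 (-0.52). For CREB1, whose product binds class II promoters, probe A_24_P932208 was called lower in HBL-1 (-0.55). The other CREB1 probes read 0.06 and -0.30 there, short of the log2 limit. Of all probes, 0.844% were called lower in DB and 4.33% in HBL-1. K422 had no call among the 19 (2.32% of all probes higher and 1.93% lower). RFXAP read -0.46 there too, past the limma adjusted p (2.02e-04) but short of the log2 limit. The list's medians lay between -0.09 and 0.01 in the 4 lines.

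Other loci of the class II region gave 3 of 6 probes called higher in OCI-Ly3, from the pseudogenes HLA-DPB2 (0.82 and 0.76) and HLA-DRB6 (0.63), 0 in HBL-1, and 1 lower in each GCB line, both HLA-DQA2 (-0.52 in K422 and -0.505 in DB). The first HLA-DPB2 probe was well above background in siCtrl on 2 of 6 OCI-Ly3 arrays and HLA-DQA2 on 3 of 6 DB arrays. There were 7 probes for genes of antigen processing or presentation. LGMN and 1 CD1D probe were called higher in OCI-Ly3 (0.78 and 0.69), and the other CD1D probe in HBL-1 (0.77). IFI30, the lysosomal thiol reductase, was lower in K422 (-0.72) and CTSL1 in HBL-1 (-0.56). The CD1D probe called in OCI-Ly3, A_24_P11208, was well above background there in siFOXP1 on 2 of 6 arrays and in siCtrl on 0. It read 0.33 in HBL-1, and the CD1D probe called in HBL-1, A_23_P74575, read 0.27 in OCI-Ly3, neither at the log2 limit. Of all probes, 2.97% were called higher in OCI-Ly3 and 5.54% in HBL-1. Called lower were 4.33% in HBL-1, 1.93% in K422 and 0.844% in DB. A single call in so short a list is not read as a result about the list. Among class I genes, 1 probe each of B2M (-0.73) and NLRC5 (-0.68) was called lower in K422. In HBL-1, HLA-C (0.55) was called higher and 1 B2M probe lower (-0.67). Other class I probes rose in HBL-1 short of the log2 limit. Among them were HLA-E A_32_P460973 at 0.45 and HLA-B A_24_P161933 at 0.47 (limma adjusted p = 2.79e-05 and 5.94e-05). The list's median was 0.40 in HBL-1, 0.16 in OCI-Ly3, 0.03 in K422 and 0.04 in DB. A rise in HBL-1 was thus not particular to class II, whose 19 probes had a median of 0.34 there.

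Outside these lists, 17920 probes well above background on all arrays were compared with the median of the 8 class II probes measured in both channels on all 24 arrays. The closest by Pearson's r over 24 arrays was AB362555, described in the files as a splice variant of HLA-DMB (r = 0.949), followed by M27126, a DRw8 mRNA (0.925), so both are class II transcripts under other names. RCSD1 (0.915), an actin-capping regulator, the unnamed A_24_P52168 (0.908) and ATP2B1 (0.902), a plasma membrane calcium pump, came next. After each line's mean was removed, these correlations were 0.865, 0.879, 0.796, 0.637 and 0.700. The 24 points share lines and slides and may share siCtrl RNA, so no p is given.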

How the data were processed

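RNA of 4 DLBCL lines was measured on 24 two-colour Agilent arrays. The deposited scanner files, made by the authors with Feature Extraction 10.5.1.1 (DB, OCI-Ly3) and 10.7.3.1 (K422, HBL-1), hold linear spot intensity for both channels and, as a log10 ratio, Cy5 relative to Cy3 once linear and loess normalization had been applied within each array. The deposited matrix holds log2 values of the same arrays with array medians of -0.173 to 0.0669. Its correlation with the ratios was 0.804 to 0.998 and its direction siFOXP1 over siCtrl, but how its columns were centred is not given in the sources used here. It served as an alternative only.

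The log10 ratio as deposited by the authors was turned to log2(siFOXP1/siCtrl). Of 45015 spots, 1639 controls and 113 to 469 outlier spots per array were left out, and spots of a probe were averaged. In each array 57.3 to 64.5% of probes were well above background in a channel, and with 24 arrays their number limits the precision. limma 3.58.1 in R 4.3.3 (with data.table, version 1.17.8) was fitted over all 24 arrays with a mean for each of 8 line and siRNA combinations, with Benjamini-Hochberg adjustment over all 41000 probes. For levels, Cy5 signals were scaled between arrays (Aquantile) and the 2 arrays of a line and replicate averaged, giving n = 3. P-values measure the spread between samples labelled as biological replicates, and for responses the 6 arrays of a line were treated as independent. The scripts were tested on simulated data.

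The replicate numbers were checked for pairing. Over 18400 probes well above background, the deviations of same-numbered arrays of the 2 siRNAs correlated at 0.183 to 0.730 in all 12 pairs (0.048 to 0.297 over all probes), and siCtrl deviations at 0.321 to 0.879, so the pairs may share siCtrl RNA. The numbers were therefore taken to pair the arrays. The p-values printed come from the fit without the block, and the blocked value is given where it changes a call. That fit treats the 6 arrays of a line as independent, so its p-values for responses may be too small. With the block, no adjusted p of the 19 probes was smaller for a line or the subtype contrast. For HLA-DQB1 A_24_P239676 the limma adjusted p went from 0.00607 to 0.027 in HBL-1 and from 9.71e-05 to 0.00093 in OCI-Ly3. The siRNA difference between HBL-1 and OCI-Ly3 went the other way.

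Every member probe is named or counted. Of the pathway lists, at most 4 called genes are named by size of change, together with the closest 5 neighbours outside them and FOXP1. The members and lists were chosen with earlier results of these data known. Alternatives were normexp background correction (offset 50) with loess or median centring, the deposited matrix, the brightest probe per gene, replicate and slide blocks, each siRNA or line alone, the methods' t-test, and each replicate left out. Promoters came from RefSeq (GRCh38.p14). No promoter of HLA-DRA, HLA-DRB3 or HLA-DRB4 was used here. The class I list is described in part, as 1 of its genes is not reported here.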

Additional observations from a re-analysis of the deposited data

Results flagged for a closer look

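The difference in response between the ABC-DLBCL and GCB-DLBCL lines was itself tested for each of the 19 probes, and 13 passed (limma, adjusted p under 0.05 and a log2 difference of at least 0.5). Among the DQ probes the differences in log2 ratio were 1.099 for HLA-DQB1 A_23_P136683, 0.876 for HLA-DQB1 A_24_P239676, 0.943 for HLA-DQB2, 0.853 for HLA-DQA1 A_23_P30900 and 0.524 for HLA-DQA1 A_24_P196827. For both HLA-DQB1 probes and for A_24_P196827 the DB values did not clear background, nor did A_24_P196827 in OCI-Ly3 siCtrl. Among the DR probes they were 0.551 for HLA-DRA, 0.579 and 0.599 for the HLA-DRB3 probes A_23_P145336 and A_24_P402222, 0.546 for HLA-DRB4 and 0.556 and 0.651 for the HLA-DRB5 probes A_23_P31006 and A_23_P45099. HLA-DPB1 differed by 0.520 and 0.536 with A_23_P258769 and A_24_P166443. The 2 HLA-DPA1 probes and HLA-DRB1 passed the adjusted p but differed by 0.38, 0.39 and 0.49, short of the limit.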

How the results depend on the processing

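No value changed sign in a called result under any alternative tried. The median response of the 19 probes ran from 0.34 to 0.64 in OCI-Ly3, 0.07 to 0.48 in HBL-1, -0.31 to -0.07 in K422, -0.38 to -0.02 in DB and 0.41 to 0.65 for ABC minus GCB. Against 10 probes called higher in OCI-Ly3, normexp with median centring gave 5, the brightest probe per gene 6 and siFOXP1_309 alone 3, and leaving out 1 replicate gave 7 to 11. Against 4 in HBL-1, normexp with loess gave 1, median centring 0, siFOXP1_308 alone 0 and siFOXP1_309 alone 7. Leaving out 1 replicate gave 0 to 4 there, the 0 without HBL-1 replicate 1, where HLA-DQB1 A_23_P136683 stood at 0.49 (limma adjusted p = 0.0135). Against 13 between subtypes, normexp with loess gave 7, median centring 4, the brightest probe 8, siFOXP1_308 alone 3, the 4 line means 0 and HBL-1 minus K422 5. Leaving out 1 replicate gave 6 to 14, with 6 without DB replicate 2 and 8 without HBL-1 replicate 1.

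Against 2 lower in DB, both normexp settings, DB fitted alone and the methods' t-test gave 0, as did counting only members above background in both channels on all 6 DB arrays, a limit chosen after seeing the data. The planned filters on background, over all arrays, gave 2. The brightest probe, the replicate block, the slide block, siFOXP1_308 alone and DB without replicate 2 of siFOXP1_309 (also chosen after seeing the data) gave 1, and leaving out 1 replicate 1 to 4. DB had 1 higher without its replicate 3 (0 to 1 over replicates), and K422 1 lower with median centring. The replicate block gave 1 call between siRNAs in DB against 0, 9 against 10 in OCI-Ly3 and 11 against 13 between subtypes. Beside these and the DB count above it changed no other count of response calls. Against 0 called for OCI-Ly3 minus HBL-1, normexp with loess, the deposited matrix and siFOXP1_308 alone gave 1 each (0 to 1 over replicates), and for K422 minus DB the deposited matrix gave 1 (0 to 3). Level calls ran from 16 to 17 for OCI-Ly3 over DB and 7 to 10 for HBL-1 below K422. The cause of these shifts was not tested. In DB, 5 probes did not clear background on any array in siCtrl or siFOXP1, which limits what can be said there.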
